A study of Mus musculus with 12 samples.

Results

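The genes and transcripts that lie around Cd83 on mouse chromosome 13 were described in regulatory T cells of Cd83 knockout and wild-type mice. They were chosen by position alone: every probe, controls and Cd83 itself aside, that the array design places within 5 Mb of Cd83 on either side (mm9 build). This window of 10 Mb held 150 probes for 92 genes or transcripts. A probe was used where 1 group or more had it well above background on each of its 3 arrays, and the brightest such probe stood for its gene, which left 46 of the 92. Over the whole array 18545 of 34761 genes or transcripts passed the same filter, so the flanking set is 46 of 18545.

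Regulatory T cells (Treg) are a CD4 lineage, set by the transcription factor Foxp3, that holds other immune cells in check. CD83 is a membrane protein of the immunoglobulin superfamily, best known from mature dendritic cells and also made by activated lymphocytes. Genes next to a targeted gene are inherited with it through breeding, and enhancers can act over long distances, so the neighbours of a deleted gene are commonly examined beside it. The genes around Cd83 share no common pathway. They include mitochondrial enzymes and regulators (Sirt5, Mcur1), chromatin proteins (Jarid2, Kdm1b, Dek, Phf2), ubiquitin ligases (Mylip, Rnf144b) and proteins of the cytoskeleton and of vesicle transport (Nedd9, Kif13a, Dtnbp1).

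RNA came from sorted splenic Treg of female C57BL/6 mice and was hybridised to 12 arrays with the single dye Cy3. The 4 groups held 3 arrays each: KO cells stimulated for 3 h with anti-CD3 and anti-CD28 antibodies (KO 3 h), non-activated KO cells (KO 0 h), WT cells stimulated in the same way (WT 3 h) and non-activated WT cells (WT 0 h). KO stands for the conditional knockout, given as CD83cKO with no Cre driver named, and WT for CD83 WT. KO mice were 10 weeks old, apart from replicate 3 at 3 h and replicate 3 at 0 h, which came from mice of 21 weeks. WT mice were 9 weeks old. With 6 mice listed for 12 arrays, some arrays share a mouse, and the labels do not say which. Replicate numbers follow the order of deposit and pair no arrays across groups. P-values treat the arrays as independent, and the spread between arrays may in part be technical.

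One slide held the 6 KO arrays, another the WT 3 h arrays and another the WT 0 h arrays. Genotype and slide therefore cannot be told apart, nor can time and slide in WT, while the 6 KO arrays allow 3 h to be set against 0 h within 1 slide. Values are log2 processed signals relative to each array's 75th percentile, so that 0 is a bright probe; a value is compared between arrays for 1 probe, never between probes. Precision is limited by having 3 arrays per group. A gene was called changed where limma's moderated test gave an adjusted p under 0.05 (Benjamini-Hochberg over all 18545 genes).

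The labelled cell type was checked against fixed marker lists, given as log2 of the summed signal. The 10 T cell markers ran from 4.73 to 7.03 at KO 3 h and from 5.52 to 7.09 at KO 0 h, against 6.91 to 7.04 at WT 3 h and 7.29 to 7.49 at WT 0 h. The lowest T cell value at each time in KO belonged to the 21-week array. The 5 Treg markers ran from 1.96 to 4.84 at KO 3 h and from 1.29 to 3.74 at KO 0 h, against 4.89 to 5.05 at WT 3 h and 4.27 to 4.48 at WT 0 h, again with the 21-week arrays lowest. The mean log2 of these 5 markers ranked the 10-week KO arrays differently. At 3 h it was 0.62 and 0.80 on them, above the WT range of -0.09 to -0.003. At 0 h it was -0.41 on both, inside the WT range of -0.57 to -0.31. Foxp3 signal was well above background in 6 of 6 KO arrays but in 0 of 6 from WT, which goes against what defines the labelled cells in WT. Foxp3, 1 of the 5 averaged, passed the filter only through KO. It was at least 8.92-fold higher in KO at 3 h and at least 5.82-fold at 0 h. The median KO minus WT difference of the 5 Treg markers was below 0, at -1.03 at 3 h and -1.39 at 0 h with all arrays. The 10 macrophage markers ran higher in KO at both times, at 2.58 to 3.28 at KO 3 h against 0.79 to 1.15 at WT 3 h and at 4.61 to 5.11 at KO 0 h against 2.79 to 3.25 at WT 0 h, and 8 of 10 were called higher in KO at 3 h and 9 of 10 at 0 h. The 5 plasma cell markers stood at 7.56 on the 21-week KO 3 h array and at 7.15 on the 21-week KO 0 h array, against 0.80 to 3.66 on the other 10 arrays. The part of other cells in the values below was not tested, and fewer cells of a type cannot be told apart from less RNA per cell.

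The targeted gene was read by a probe at chr13:43898276-43898335 on the plus strand. Cd83 stood at 1.06, 1.07 and 1.92 at KO 3 h and at 0.75, 0.29 and 0.23 at KO 0 h. WT cells had 4.21, 3.69 and 3.65 at 3 h and 2.36, 2.17 and 2.39 at 0 h. Cd83 was thus lower on every KO array than on any WT array of the same time, and well above background on all 12. KO minus WT was -2.50 ± 0.26 (SE) at 3 h and -1.88 ± 0.26 at 0 h, with adjusted p of 0.0023 and 0.0089 by limma. The labels do not say which part of the gene was deleted, so whether this probe lies inside it was not determined.

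Of the 46 flanking genes and transcripts, 29 are protein coding, 2 are annotated long noncoding RNAs, 7 are probe sets that the array design names only as long intergenic noncoding RNA (lincRNA) regions, and 8 have no further annotation. They are spread unevenly: 15 lie towards the centromere and 31 towards the telomere, with 8 within 1 Mb of Cd83, 10 between 1 and 2.5 Mb, and 28 between 2.5 and 5 Mb. Of the tested members, 40 were well above background on all 12 arrays. The other 46 genes or transcripts of the window were not tested, and 27 of them were not above background on any array. The 16 protein-coding genes among them were Ofcc1, Tfap2a, Mak, Gcm2, Sycp2l, Elovl2, Adtrp, Edn1, Phactr1, Gfod1, Rnf182, Gmpr, Stmnd1, Rbm24, Id4 and Barx1. Tfap2a and Gcm2 are developmental transcription factors and Edn1 encodes the vasoconstrictor peptide endothelin.

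Several sequences carry results given further on, and are shown because neighbouring probes of a transcript did not behave alike or because 2 entries share sequence. The 3 most centromeric tested probes of the reverse-strand lincRNA region chr13:41337973-41379821 lie within 2286 bases, and of these 3 only the second was bright on the 21-week arrays. CG dinucleotides are in capitals, and positions are mm9, minus strand, at 41343388 to 41343447, 41345201 to 41345260 and 41345614 to 41345673.
A_30_P01030194: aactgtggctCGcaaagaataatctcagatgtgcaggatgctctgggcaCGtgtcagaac
A_30_P01018826: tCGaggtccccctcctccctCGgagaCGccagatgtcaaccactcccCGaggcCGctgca
A_30_P01022598: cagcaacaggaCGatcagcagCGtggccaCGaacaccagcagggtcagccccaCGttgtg

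A second pair belongs to the forward-strand lincRNA region chr13:48576557-48581632 and abuts end to end on the plus strand, at 48581310 to 48581369 and 48581370 to 48581429. Capitals again mark CG dinucleotides, of which the first probe has 0 and the second has 2.
A_30_P01032998: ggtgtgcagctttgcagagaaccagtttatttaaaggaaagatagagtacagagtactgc
A_30_P01029676: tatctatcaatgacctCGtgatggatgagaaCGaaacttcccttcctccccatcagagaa

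The last pair shows that AK160312 and the reverse-strand lincRNA region chr13:48620882-48643532 are read partly by the same bases. Capitals mark the stretch of 52 bases that both probes hold, at 48630917 to 48630976 for AK160312 and 48630909 to 48630968 for the region, on the minus strand. The values of the region given further on come from its brightest probe, A_30_P01018771, at 48630969 to 48631028. That probe overlaps the AK160312 probe only from 48630969 to 48630976. The 2 members thus overlap at their edges on the same strand and should not be read as independent.
AK160312: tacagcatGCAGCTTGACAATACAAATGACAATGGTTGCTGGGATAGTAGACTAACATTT
A_30_P01030953: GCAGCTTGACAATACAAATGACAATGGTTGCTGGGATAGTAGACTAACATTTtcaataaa

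The first comparison asks which neighbours of Cd83 differed between KO and WT cells. None of the 46 was called at either time: 0 of 46 at 3 h, where 1.45% of all genes were called (268 of 18545), and 0 of 46 at 0 h, where 2.08% were called (385 of 18545). With shares this low over all genes, a count of 0 among 46 is near the background. An unadjusted p under 0.05 by limma was reached by 4 members at 3 h (Gcnt2, Rnf144b, Ptpdc1 and Cap2), which is 8.7% of them beside 10.6% of all genes. At 0 h it was reached by 5 members (Gcnt2, Rnf144b, Tmem14c, Zfp169 and the forward-strand lincRNA region chr13:48576557-48581836), or 10.9% beside 15.4% of all genes. Neither share is above that of all genes. The median difference of the members was -0.07 at 3 h and -0.09 at 0 h, beside 0.04 and -0.03 over all genes tested. Arrays of the 2 genotypes did not overlap for 6 of 46 members at 3 h (13%, beside 19.2% of all genes) and for 11 of 46 at 0 h (23.9%, beside 31.6%).

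**Figure D1:**
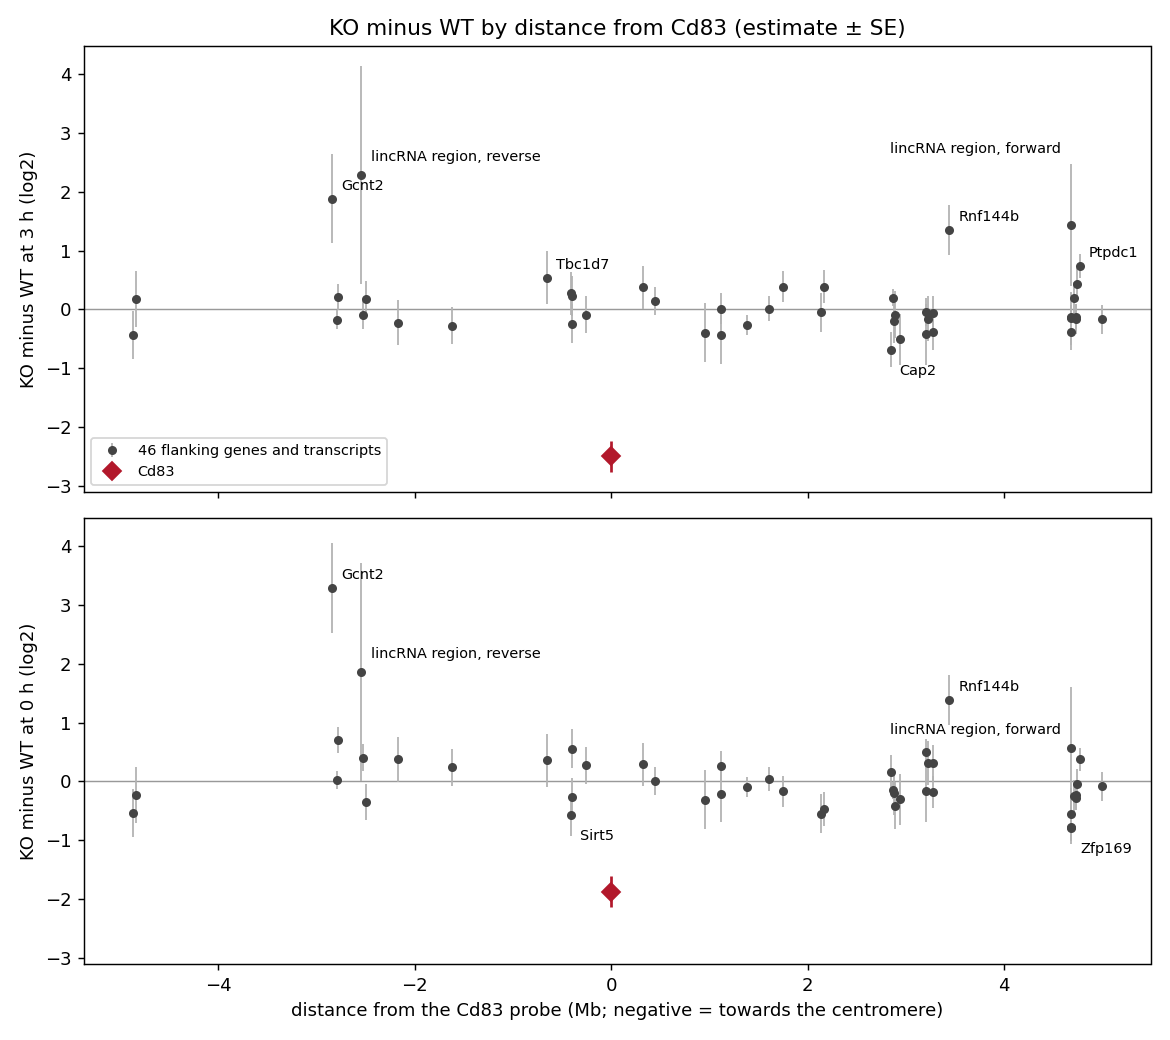
KO minus WT difference (log2, estimate ± SE from limma, 3 arrays per group) of the 46 flanking genes and transcripts at 3 h (top) and 0 h (bottom) against distance from the Cd83 probe in Mb. Cd83, at -2.50 and -1.88, lies below all flanking genes, and those within 1 Mb of it lie between -0.57 and 0.56.

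The 8 members within 1 Mb of Cd83 were all well above background on all 12 arrays, and 0 of them were called. The nearest on the centromeric side was Mcur1 (chr13:43644060-43644928, minus strand), a regulator of mitochondrial calcium uptake, 0.25 Mb away. It stood at -1.66, -1.54 and -3.00 at KO 3 h, against -1.98, -2.05 and -1.91 at WT 3 h, and at -3.13, -3.21 and -3.27 at KO 0 h, against -3.58, -3.41 and -3.43 at WT 0 h. KO and WT overlapped at 3 h through the 21-week array, and at 0 h KO was higher on every array, by 0.27 ± 0.32 (adjusted p = 0.718, limma). Sirt5 (chr13:43490351-43490410, plus strand), a mitochondrial enzyme that strips succinyl and malonyl groups from lysines, lies 0.41 Mb away. It stood at -4.97, -5.24 and -3.70 at KO 3 h, against -5.12, -4.69 and -4.92 at WT 3 h. At 0 h Sirt5 had -2.09, -2.07 and -2.77 in KO, against -1.73, -1.83 and -1.65 in WT, so that KO was lower on every array, by a difference of -0.57 ± 0.36 (adjusted p = 0.497, limma).

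Beside Sirt5 lie Nol7, a nucleolar protein, and Ranbp9, a scaffold protein of a ubiquitin ligase complex, whose probes are 442 bases apart on opposite strands. The KO minus WT difference of Nol7 was 0.22 ± 0.34 at 3 h and 0.56 ± 0.34 at 0 h. Ranbp9 differed by -0.24 ± 0.33 at 3 h and -0.26 ± 0.33 at 0 h, with its 21-week KO arrays at -1.18 and -1.34 and the other 10 arrays between -0.51 and -0.01. Tbc1d7, a subunit of the TSC complex that restrains mTORC1, was 0.65 Mb away and differed by 0.54 ± 0.45 at 3 h and 0.36 ± 0.45 at 0 h.

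On the telomeric side the first tested entry was the forward-strand lincRNA region chr13:44217172-44224947, 0.32 Mb away, which differed by 0.37 ± 0.36 at 3 h and 0.29 ± 0.36 at 0 h. The unannotated LOC432754 differed by 0.14 ± 0.23 and 0.01 ± 0.23, and the transcript cluster TC1632043 by -0.40 ± 0.50 and -0.31 ± 0.50, at 3 h and at 0 h. None of the 8 was called. Their 95% intervals are for single genes, with arrays taken as independent and genotype not separable from slide. The lowest limit of any of them was -1.52 at 3 h and -1.43 at 0 h, both for TC1632043. The interval of Cd83 itself ran from -3.09 to -1.91 at 3 h and from -2.47 to -1.29 at 0 h. At 0 h the intervals of TC1632043 and of Sirt5, with a lower limit of -1.38, reached into that of Cd83. The highest limit was 1.54 at 3 h and 1.36 at 0 h, both for Tbc1d7. Across all 46 members, Spearman's rho between the size of the difference and the distance was 0.06 at 3 h and 0.07 at 0 h, given as a description across genes that share the same arrays.

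The largest difference at 0 h belonged to Gcnt2 (chr13:41055331-41055390, plus strand), which encodes the enzyme that branches I-antigen poly-N-acetyllactosamine chains, 2.84 Mb to the centromeric side. At 0 h Gcnt2 stood at -5.33, -6.67 and -4.35 in KO, against -8.27, -8.38 and -9.58 in WT. All KO arrays were above all WT arrays, and 3 of 3 were well above background in KO against 0 of 3 in WT, which makes Gcnt2 at least 4.42-fold higher in KO (adjusted p = 0.059, limma). At 3 h the KO arrays had -8.09, -6.64 and -5.35 and the WT arrays -9.21, -8.68 and -7.85. Of these, 1 of 3 was well above background in KO and 0 of 3 in WT. The genotypes overlapped (adjusted p = 0.414, limma), and no fold is given because most KO arrays were dim too. Gcnt2 passed the filter only through KO 0 h, the group where it is high, so a difference from that group was built into its selection and its p-values at 0 h are given as a description. The 0 h difference was 3.29 ± 0.76 with all arrays and 2.74 ± 0.65 without the 21-week arrays (adjusted p = 0.048, limma). Leaving out 1 array gave adjusted p from 0.025 to 0.256 by limma, under 0.05 only without KO 3 h replicate 1 or replicate 3. After normexp background correction the difference was 0.84 ± 0.33 (adjusted p = 0.284, limma). The markers of macrophages, plasma cells and erythroid cells also ran higher in KO at 0 h. At 3 h the macrophage markers did so too, while the other lists overlapped between genotypes. The plasma cell markers ran from 1.03 to 7.56 at KO 3 h, against 1.01 to 1.65 at WT 3 h. The erythroid markers ran from 2.01 to 5.31, against 0.91 to 3.55. The part of these cells in Gcnt2 was not tested.

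Rnf144b, a ubiquitin ligase 3.44 Mb to the telomeric side, had -5.56, -6.22 and -5.17 at KO 0 h, against -7.08, -6.17 and -7.86 at WT 0 h. The groups touched through 1 WT array, and the difference was 1.39 ± 0.42 (adjusted p = 0.150, limma). Rnf144b too passed the filter only through KO 0 h. At 3 h its probe was well above background on 0 of 3 arrays in either genotype, so no fold is given. Tmem14c, an inner mitochondrial membrane protein needed for haem synthesis in erythroid cells, had 0.11, 0.80 and 0.43 at KO 0 h, against -0.25, -0.17 and -0.36 at WT 0 h. All KO arrays were above the WT arrays, by 0.70 ± 0.22 (adjusted p = 0.156, limma). At 3 h the genotypes overlapped for Tmem14c, and the difference was 0.21 ± 0.22. The 5 tested erythroid markers ran from 5.0 to 5.92 at KO 0 h, against 1.77 to 3.75 at WT 0 h, and their part in Tmem14c was not tested.

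Ptpdc1, a tyrosine phosphatase domain protein 4.78 Mb to the telomeric side, was the only gene with a difference above 0.5 at 3 h that did not overlap and was above background on every array. It stood at -2.24, -2.32 and -1.74 at KO 3 h, against -3.11, -2.72 and -2.69 at WT 3 h. The difference was 0.74 ± 0.20 (adjusted p = 0.143, limma), and a second probe of the gene differed by 0.66 in the same direction. At 0 h KO was again higher on every array, by 0.38 ± 0.20 (adjusted p = 0.403, limma).

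**Figure D2:**
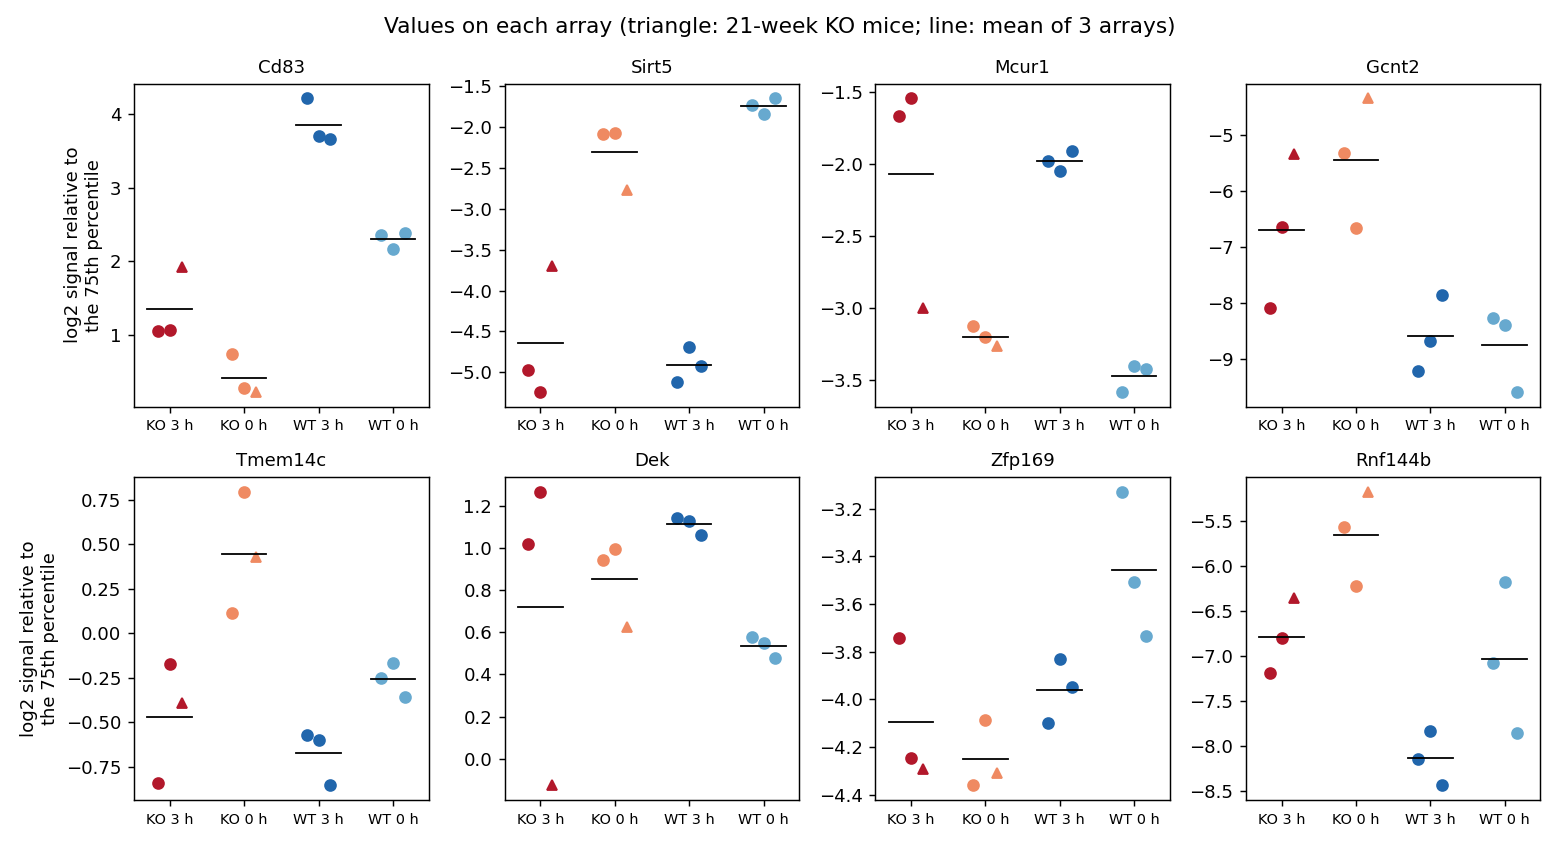
Values of Cd83 and 7 flanking genes on each of the 12 arrays (log2 signal relative to the array's 75th percentile), for KO 3 h, KO 0 h, WT 3 h and WT 0 h. Circles are arrays, triangles the KO arrays of 21-week mice, and lines the means of 3 arrays. Cd83 separates KO from WT at both times, while Sirt5 and Mcur1, its near neighbours, separate 3 h from 0 h in both genotypes.

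The most negative difference at 0 h belonged to Zfp169 (chr13:48585002-48585061, minus strand), a zinc finger protein 4.69 Mb to the telomeric side. It had -4.36, -4.09 and -4.31 at KO 0 h, against -3.13, -3.51 and -3.73 at WT 0 h. KO was lower on every array, by a difference of -0.79 ± 0.21 (adjusted p = 0.090, limma), and at 3 h the difference was -0.13 ± 0.21. When 1 array was left out the adjusted p at 0 h ran from 0.048 to 0.306 by limma, under 0.05 only without KO 3 h replicate 1 or replicate 3. The second probe of Zfp169 differed by -0.50 at 0 h and by -0.07 at 3 h, and the mean of both probes by -0.65 at 0 h (adjusted p = 0.211, limma).

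Next to Zfp169 the array carries 3 lincRNA probe sets on both strands that start at 48576557. Counting these and Zfp169, 15 probes passed between 48577428 and 48585061. At 0 h 14 of 15 were lower in KO, with a median difference of -0.68 and a range from -1.51 to 0.57. Over all genes tested, 9744 of 18545 were lower in KO at 0 h. At 3 h 12 of 15 were lower in KO, with a median of -0.14. The 0 h count rested in part on the 21-week array. Without the 21-week arrays the reverse-strand set differed by -0.09 at 0 h, in place of -0.56. Its probe A_30_P01025062 had -5.69 and -5.73 on the other KO 0 h arrays, above -5.90, -6.03 and -5.83 at WT 0 h. Zfp169 and the forward-strand region chr13:48576557-48581836 stayed lower in KO without the 21-week arrays, by differences of -0.77 and -0.58. Probes of these sets overlap in part, sharing stretches of 49 and 45 bases, so they are not independent. With all arrays, the single exception at 0 h was the probe of the abutting pair with capitals in its sequence above, A_30_P01029676. Its higher mean in KO came from the 21-week array alone. The values were -5.91, -5.64 and -2.85 at KO 0 h, the last on that array, against -5.37, -5.37 and -5.36 at WT 0 h. Without the 21-week arrays this probe too was lower in KO, by a difference of -0.41.

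At 3 h the lowest differences were those of Cap2, an actin regulator, at -0.69 ± 0.30, of the kinesin Kif13a at -0.51 ± 0.43, and of the Golgi sulphate-donor transporter Slc35b3 at -0.44 ± 0.41. Jarid2, a cofactor of the Polycomb complex PRC2, was next at -0.44 ± 0.49. Cap2 was well above background on 0 of 3 arrays at KO 3 h and on 3 of 3 at WT 3 h, with no fold above 1 once the background limit is applied. For Kif13a the value on the 21-week KO array was -3.52 and the other 2 KO arrays stood at -1.77 and -1.86, inside the WT range of -1.98 to -1.69. For Jarid2 the 21-week array was also the lowest, at 0.15, 0.03 and -2.05 at KO 3 h, against -0.11, -0.33 and -0.11 at WT 3 h. Without the 21-week arrays the 3 h difference was 0.06 ± 0.11 for Kif13a, 0.27 ± 0.14 for Jarid2 and -0.0016 ± 0.11 for Slc35b3.

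The 2 arrays from 21-week KO mice set much of the spread. The median SD over the members was 0.58 at KO 3 h and 0.41 at KO 0 h, against 0.13 at WT 3 h and 0.12 at WT 0 h. At 3 h the 21-week array lay outside the range of the 5 other arrays of that time for 38 of 46 members (82.6%, beside 79.7% of all genes), and at 0 h for 35 of 46 (76.1%, beside 71.0%). Of these, 24 members were lower at each time on the 21-week array. Left out, these arrays gave 0 of 46 calls at 3 h (1.98% of all genes) and 3 of 46 at 0 h (6.52%, beside 6.63% of all genes).

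The 3 members called at 0 h without the 21-week arrays were Gcnt2, Dek and A830005F24Rik. Dek, a chromatin protein that binds and bends DNA, had 0.94, 1.00 and 0.62 at KO 0 h, against 0.58, 0.55 and 0.48 at WT 0 h. KO was higher on every array. Without both 21-week arrays the difference of Dek was 0.43 ± 0.10 (adjusted p = 0.047, limma), and without the KO 0 h array at 0.62 alone it was 0.43 ± 0.34 (adjusted p = 0.70), in place of 0.32 ± 0.30 with all arrays. A830005F24Rik, a RIKEN cDNA transcript, had -6.26, -5.94 and -5.24 at KO 0 h, against -5.54, -5.61 and -5.55 at WT 0 h. Its difference was -0.54 ± 0.12 without both 21-week arrays (adjusted p = 0.039, limma) and -0.54 ± 0.22 without the KO 0 h array at -5.24 alone (adjusted p = 0.385), in place of -0.25 ± 0.27. Neither gene was called when 1 array was left out.

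The widest spread of all members belonged to the reverse-strand lincRNA region chr13:41337973-41379821, 2.55 Mb to the centromeric side. Its brightest probe, A_30_P01018826, stood at 4.18 on the 21-week KO 3 h array and at 3.12 on the 21-week KO 0 h array. The other 10 arrays lay between -2.62 and -2.43. The mean KO minus WT difference of 2.29 ± 1.85 at 3 h and 1.86 ± 1.85 at 0 h therefore came from 1 array at each time, and was 0.05 ± 0.09 at 3 h and -0.01 ± 0.09 at 0 h without them.

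None of the 5 other tested probes of that region came near these values. The probe before it in the sequences above, A_30_P01030194, had -7.52 and -7.75 on the 21-week arrays, against -6.90 to -5.76 on the other 10. The probe after it, A_30_P01022598, had -7.78 and -6.72, against -7.42 to -6.34. One of the 5, A_30_P01033272, was also higher on both 21-week arrays, at -5.70 and -5.26 against -6.95 to -5.77, a far smaller step. In A_30_P01018826, 41 of 60 bases are G or C, a content reached by 0.523% of all probes on the array, whose median is 26, and it shares no stretch of 16 bases with any other probe. A_30_P01022598, which was not raised on the 21-week arrays, has 38 of 60. The plasma cell markers were highest on the same 2 arrays. So were the B cell markers, at 5.56 at 3 h and 5.01 at 0 h, against 1.06 to 3.71 on the other 10. The T cell and Treg markers were lowest on these 2 arrays. The part of any of these cells in this probe was not tested.

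**Figure D3:**
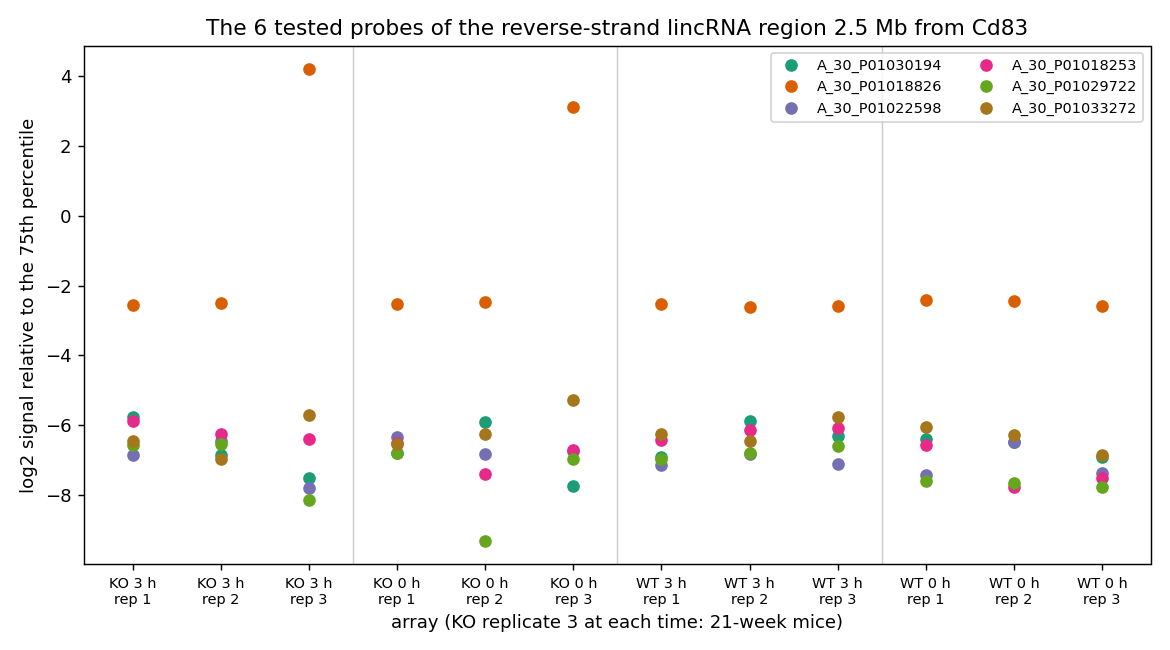
Values of the 6 tested probes of the reverse-strand lincRNA region 2.55 Mb from Cd83 on each of the 12 arrays (log2 signal relative to the array's 75th percentile). A_30_P01018826 stands at 4.18 and 3.12 on the arrays of 21-week KO mice and between -2.62 and -2.43 on the other 10, while the other 5 probes stay at or below -5.26 on every array.

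The forward-strand lincRNA region chr13:48576557-48581632 held a second such probe. A_30_P01029676 stood at -1.70 on the 21-week KO 3 h array and at -2.85 on the 21-week KO 0 h array, against -5.94 to -5.32 on the other 10. The probe that abuts it, A_30_P01032998, had -8.07 and -7.49 on the 21-week arrays, against -7.36 to -6.51. Neighbouring bases thus gave opposite directions on these 2 arrays. In A_30_P01029676, 27 of 60 bases are G or C, a content reached by 45.78% of all probes on the array.

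The second comparison asks how the neighbours of Cd83 changed within 3 h of stimulation. Cd83 itself rose in both genotypes, by 0.93 ± 0.26 in KO (adjusted p = 0.039) and by 1.55 ± 0.26 in WT (adjusted p = 0.0025, limma). In KO, 10 of 46 members changed (21.7%, beside 17.2% of all genes): 8 were called higher at 3 h, the dim Cap2 among them (17.4%, beside 7.38% of all genes), and 2 fell (4.35%, beside 9.79%). In WT, 15 of 46 changed (32.6%, beside 29.9% of all genes): 12 rose (26.1%, beside 13.3%) and 3 fell (6.52%, beside 16.6%). The median activation difference of the members was 0.32 in KO and 0.16 in WT, beside -0.04 and -0.14 over all genes. Groups did not overlap for 9 members in KO (19.6%, beside 24.4% of all genes) and 33 in WT (71.7%, beside 68.5%).

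The calls of KO and WT shared 8 members, all with the same sign: Sirt5 fell, and Mcur1, Smim13, Tmem170b, Fam8a1, AK160312 and the reverse-strand lincRNA region chr13:48620882-48643532 rose. The remaining shared call is Cap2, positive in both, which was too dim to be measured on any KO array and passed the filter only through WT 3 h, so no rise in KO was measured. That is 8 of the 10 called in KO and 8 of the 15 called in WT. The 2 called in KO alone were Tmem14c and A830005F24Rik. Called in WT alone were Hivep1, Pak1ip1, Tpmt, LOC432754, 5033403F01Rik, TC1776528 and the transcript of probe A_55_P2186446. The difference of the 2 activation effects itself was called for 0 of 46 members and for 0 of 18545 genes by limma (0% of all genes), with 1 member, Zfp169 at 0.66 ± 0.29, and 688 genes at an unadjusted p under 0.05, so a call in 1 genotype alone does not show a difference between them.

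**Figure D4:**
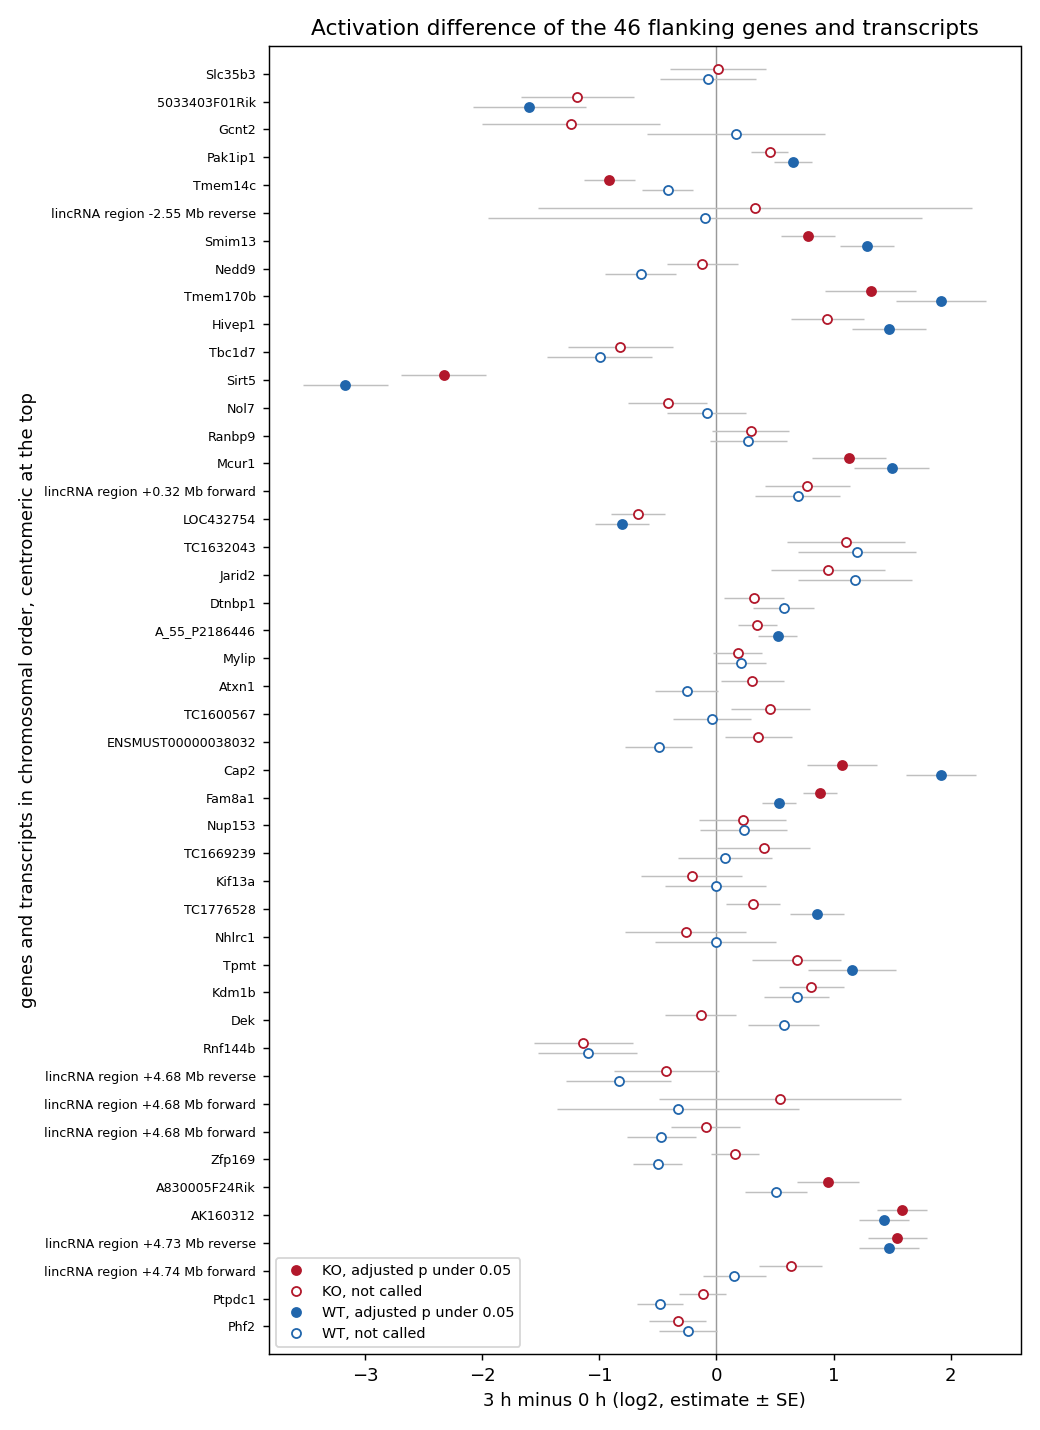
Difference between 3 h and 0 h (log2, estimate ± SE from limma, 3 arrays per group) for the 46 flanking genes and transcripts in KO (red) and WT (blue), in chromosomal order. Filled circles passed an adjusted p of 0.05, 10 in KO and 15 in WT; Sirt5 has the most negative value in both genotypes, at -2.33 and -3.17.

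Sirt5 fell furthest of the members in both genotypes. Its 3 h values of -4.97, -5.24 and -3.70 in KO lay below all 3 KO values at 0 h, of -2.09, -2.07 and -2.77, and the WT values of -5.12, -4.69 and -4.92 at 3 h lay below -1.73, -1.83 and -1.65 at 0 h. The activation difference was -2.33 ± 0.36 in KO (adjusted p = 0.0032) and -3.17 ± 0.36 in WT (adjusted p = 0.0004, limma). The KO value was -3.03 without the 21-week arrays. Both calls held when any 1 of the 12 arrays was left out and under all 10 other settings tried.

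Mcur1 rose beside it. Its 3 h values of -1.66, -1.54 and -3.00 in KO stood against -3.13, -3.21 and -3.27 at 0 h, a difference of 1.13 ± 0.32 (adjusted p = 0.037, limma). In WT -1.98, -2.05 and -1.91 at 3 h stood against -3.58, -3.41 and -3.43 at 0 h, a difference of 1.5 ± 0.32 (adjusted p = 0.0070, limma). The groups did not overlap in either genotype, with the 21-week KO array the lowest of the 3 h arrays. The KO call was kept in 1 of the 12 fits that left out an array, and the KO difference was 1.56 with an adjusted p of 4.1e-05 without both 21-week arrays.

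The other 6 members within 1 Mb gave 1 further call. LOC432754 fell in WT, by a difference of -0.81 ± 0.23 (adjusted p = 0.026, limma), and its KO difference was -0.67 ± 0.23 (adjusted p = 0.075). Tbc1d7 had -0.82 in KO and -1.0 in WT, and TC1632043 had 1.11 in KO and 1.20 in WT, none of them called. Nol7, Ranbp9 and the lincRNA region at 0.32 Mb lay between -0.42 and 0.78 in both genotypes and were not called.

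AK160312 had the largest rise in KO, at -0.42, -0.15 and -0.96 at 3 h, against -2.06, -1.89 and -2.34 at 0 h. In WT it stood at -0.40, -0.38 and -0.39 at 3 h, against -1.80, -1.67 and -2.0 at 0 h. All 3 h arrays were above all 0 h arrays in each genotype, by 1.58 ± 0.21 in KO (adjusted p = 0.0018) and 1.43 ± 0.21 in WT (adjusted p = 0.0012, limma). The brightest probe of the lincRNA region that shares bases with it rose by 1.54 ± 0.25 in KO and 1.47 ± 0.25 in WT. The region probe printed above, A_30_P01030953, rose by 1.67 in KO and 1.42 in WT.

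Fam8a1, a cofactor of the endoplasmic reticulum ubiquitin ligase Hrd1, had -1.96, -2.05 and -2.0 at KO 3 h, against -2.76, -2.83 and -3.07 at KO 0 h. Its values in WT were -2.13, -2.31 and -2.19 at 3 h, against -2.56, -2.76 and -2.90 at 0 h. The groups were apart in both genotypes, and the rise was 0.88 ± 0.15 in KO (adjusted p = 0.0041) and 0.53 ± 0.15 in WT (adjusted p = 0.021, limma). The 21-week arrays did not stand apart for Fam8a1 at 3 h.

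The membrane proteins Tmem170b and Smim13 rose in both genotypes. Tmem170b had -3.03, -2.76 and -4.24 at KO 3 h, against -4.76, -5.16 and -4.07 at KO 0 h, and -2.97, -3.29 and -3.10 at WT 3 h, against -4.72, -5.22 and -5.19 at WT 0 h. The rise was 1.32 ± 0.39 in KO (adjusted p = 0.043) and 1.92 ± 0.39 in WT (adjusted p = 0.0053, limma), although the 2 KO times overlapped through the 21-week arrays. Smim13 rose by 0.78 ± 0.23 in KO (adjusted p = 0.043) and 1.28 ± 0.23 in WT (adjusted p = 0.0031, limma), also with overlap in KO. Each of these 2 KO calls was kept in 2 of the 12 fits that left out an array, and without the 21-week arrays the KO differences were 2.06 and 1.20.

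Cap2 passed the filter only through WT 3 h and was dim elsewhere. It was called in both genotypes, but in KO its probe was well above background on 0 of 6 arrays, so no fold is given there. In WT it stood at -6.76, -7.36 and -7.39 at 3 h, well above background on 3 of 3 arrays, against -9.21, -9.23 and -8.83 at 0 h, above background on 0 of 3, which makes it at least 1.34-fold higher at 3 h (adjusted p = 0.0016, limma). The noncoding 5033403F01Rik went the other way in WT, with 0 of 3 arrays above background at 3 h and 3 of 3 at 0 h, at least 1.91-fold lower at 3 h (adjusted p = 0.031, limma). It passed the filter only through WT 0 h, so both WT differences in this paragraph are from the group that let the gene in and are descriptions.

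Hivep1, a large zinc finger protein that binds NF-kB-type sites, rose in WT at 1.62 Mb from Cd83. It had -2.48, -2.54 and -2.47 at WT 3 h, against -4.05, -3.91 and -3.96 at WT 0 h, a rise of 1.47 ± 0.31 (adjusted p = 0.0070, limma). In KO it had -2.25, -2.70 and -3.39 at 3 h, against -3.09, -3.93 and -4.16 at 0 h, with some overlap and a difference of 0.95 ± 0.31 (adjusted p = 0.065). Tmem14c fell in KO, by a difference of -0.91 ± 0.22 (adjusted p = 0.020, limma), with all 3 h arrays below all 0 h arrays, and had -0.42 ± 0.22 in WT (adjusted p = 0.182).

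Grouped by role, 0 of the tested members of any list were called between KO and WT at 3 h or 0 h, beside 1.45% and 2.08% of all genes. Activation was called for 17.2% of all genes in KO and 29.9% in WT. The lists are too short to set their counts apart from these shares. Of 10 chromatin and transcription genes in the window 6 were tested. With activation 0 changed in KO and Hivep1 rose in WT. The list's median activation difference was 0.56 in KO and 0.63 in WT, beside -0.04 and -0.14 over all genes. Jarid2 had 0.95 in KO and 1.18 in WT, and Kdm1b, a histone H3 lysine demethylase, had 0.81 in KO and 0.69 in WT, none of them called. Of 8 mitochondrial and metabolic genes 6 were tested: in KO Mcur1 rose and Sirt5 and Tmem14c fell, and in WT Mcur1 and Tpmt, which inactivates thiopurine drugs, rose and Sirt5 fell. Tpmt rose by 1.16 ± 0.38 in WT (adjusted p = 0.043, limma), a call kept in 3 of the 12 fits that left out an array.

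Of the 10 cytoskeleton, adhesion and trafficking genes in the window 7 were tested, and Cap2, dim on all KO arrays, was the 1 called in each genotype. The rest of that list had activation differences from -0.82 to 0.32 in KO and from -1.0 to 0.57 in WT, the lowest being Tbc1d7 and the highest the BLOC-1 subunit Dtnbp1. Of 4 ubiquitin ligases and their relatives 3 were tested and 0 called. Mylip, which targets the LDL receptor for degradation, had 0.18 in KO and 0.21 in WT, and Nhlrc1 had -0.26 and -0.01. Rnf144b had -1.13 and -1.10, but its probe was well above background on 0 of 3 arrays at 3 h in either genotype. Only a bound can be given for it in KO, at least 1.89-fold lower at 3 h. At WT 0 h 1 of 3 arrays was above background and the WT times overlapped, so no bound is given in WT. Rnf144b entered only through KO 0 h, so its KO value is a description. Pak1ip1, a ribosome assembly factor, rose by 0.65 ± 0.16 in WT (adjusted p = 0.013, limma) and had 0.45 ± 0.16 in KO (adjusted p = 0.078). The remaining list had 2 tested genes, Smim13 and Fam8a1, which rose in both genotypes.

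Without the 21-week arrays 24 of 46 members were called with activation in KO (52.2%, beside 46.2% of all genes) and 26 in WT (56.5%, beside 55.8% of all genes). Of the 10 KO calls made with those arrays, those of Sirt5, AK160312, its overlapping region and Fam8a1 held in 12 of the 12 fits that left out 1 array, that of Tmem14c in 10, and the other 5 in 1 to 4. Of the 15 WT calls, 9 held in 12 of 12 and the other 6 in 3 to 8. All 10 KO calls and all 15 WT calls made with those arrays were among them with the same sign. Those added in KO included rises of Hivep1, Jarid2, Kdm1b, Pak1ip1, Ranbp9 and Tpmt and falls of Nedd9, a scaffold protein of focal adhesions, and of Phf2, a histone demethylase. WT gained calls although no WT array was left out, since all groups share 1 estimate of the spread.

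Several members were read by more than 1 tested probe. Of the 14 such members, 7 at 3 h and 5 at 0 h had at least 1 other probe whose KO minus WT difference ran the opposite way, for 13 and 12 of the 32 other probes. When all 78 passing probes of the window were tested singly, 0 were called between KO and WT at either time, beside 1.26% of all 26261 passing probes at 3 h and 1.82% at 0 h. Activation gave 13 rises and 2 falls in KO (19.2% called, beside 16.3% of all probes) and 18 rises and 3 falls in WT (26.9%, beside 29.3%). The 2 tested probes of Tpmt gave like values in activation, with KO differences of 0.69 and 0.87 and WT differences of 1.16 and 1.11. Those of Ptpdc1 disagreed in sign, with -0.12 and 0.89 for KO and -0.48 and 1.0 for WT.

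The stretches on either side also gave few calls. In the 10 Mb on the centromeric side 0 of 59 tested genes were called between KO and WT at 3 h and 0 of 59 at 0 h. In the 10 Mb on the telomeric side 3 of 103 were called at 3 h (2.91%) and 1 of 103 at 0 h (0.971%). Over chromosome 13 outside the window 6 of 701 were called at each time (0.856%). Of all genes 1.45% were called at 3 h and 2.08% at 0 h. At the edges of the window, the last genes inside were Slc35b3 and Phf2, with KO minus WT differences of -0.44 and -0.17 at 3 h and -0.53 and -0.08 at 0 h. The first genes outside were Eef1e1 and the transcript ENSMUST00000123212, with 0.15 and 0.16 at 3 h and 0.45 and -0.33 at 0 h.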

How the data were processed

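RNA of sorted splenic Treg was read on 12 Agilent arrays with 1 dye; per the labels, amplification used 20 ng for sample 1 at 0 h and 40 ng otherwise. The files deposited by the authors give linear intensity per spot, background-subtracted and detrended by the authors' scanner software, Agilent Feature Extraction 10.7.3.1 per the file headers (version 11 per the submitters' processing notes). The authors also deposited a table of log2 values, with a median of 3.89 on every array; its scaling is not stated beyond Partek, named in the submitters' processing notes, and it served as an alternative only.

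Control and outlier spots were left out and spots of a probe averaged. The log2 processed signal was shifted by each array's 75th percentile over probes well above background on all 12 arrays. limma 3.58.1 under R 4.3.3 tested each gene (4 group means, 8 residual degrees of freedom, two-sided) in 5 comparisons: KO against WT at 3 h and at 0 h, 3 h against 0 h in KO and in WT, and the difference of these. A script on simulated data tested the fit. Positions are those of the array design; probes were named by accession for 29 members, by symbol for 2 and by the files for 15, and exon or UTR annotation on mm9 was not used here. A probe dim in a whole group gives only a bound: the brighter mean over the higher of the dim probe's value and the lowest signal well above background, per array. It is given only where the brighter group was well above background on each of its arrays. Over all probes, not only those used for the shift, the 75th percentile signal ran from 165 to 324 per array.

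Named were every member within 1 Mb, any called between genotypes, the 3 highest and 3 lowest differences at each time, the 5 largest activation changes in each direction, and the role lists, whose genes were picked by known function. Other genes are named where a count is 5 or fewer or a pattern is singled out, after their values were seen. The members and lists were chosen with earlier results of these data known. Alternatives changed the shift, background correction, filter, probe choice, values, arrays and window. Slide could not be used as a block, because genotype lies between slides.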

Additional observations from a re-analysis of the deposited data

How the results depend on the processing

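KO minus WT calls at 0 h, 0 with all arrays, numbered 1 under quantile normalization (beside 1.68% of all genes), 1 with no shift between arrays (2.09%), 6 with array quality weights (11.6%), 3 without the 21-week arrays (6.63%), and 0 to 2 when 1 array was left out, with 2 (Gcnt2 and Zfp169) without KO 3 h replicate 1 (3.81%) or replicate 3 (5.91%). At 3 h there were 0, except 13 of 92, all higher in KO, with no filter on dim probes, where 14.7% of all genes were called. Activation calls in KO, 10 with all arrays, numbered 4 with no shift (1 rise and 3 falls, in place of 8 and 2; 13.3% of all genes), 5 of 92 with no filter (5.54%), 24 without the 21-week arrays (46.2%) and 21 with weights (42.1%). They ran from 4 to 18 when 1 array was left out: 4 without KO 0 h replicate 2 (9.71%) or KO 3 h replicate 1 (10.2%), 18 without KO 3 h replicate 3 (37.2%), and 5 or 6 without KO 3 h replicate 2 or any WT array (9.87% to 14%). Activation calls in WT, 15 with all arrays, numbered 6 with no shift (15.2%), 26 without the 21-week arrays (55.8%), 31 with weights (19 rises and 12 falls, in place of 12 and 3; 65.9%), and 9 to 21 when 1 array was left out, with 9 without WT 0 h replicate 2 (20.1%) or WT 3 h replicate 3 (19.6%) and 21 without KO 3 h replicate 3 (41.3%). Windows of 2.5 Mb and 1 Mb held 3 and 2 KO calls and 6 and 3 WT calls, since they hold fewer members. The causes of the other changes were not tested. With no shift the median of all genes was -0.34 for activation in KO, in place of -0.04. The difference of activation effects stayed at 0 calls under every alternative run, and no difference of a named member that was called changed sign. No paired analysis was possible because the labels do not say which arrays of different groups share a mouse, and the numbers used here follow the order of deposit. The slide as a block was not run. Dim probes and 3 arrays per group limit what could be detected.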
